A study of Mus musculus with 16 samples.

Results

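The messenger RNA of 7 GABA-A receptor subunits was followed in the medial prefrontal cortex (mPFC) of mice that had received a knockdown of the histone demethylase gene Kdm7a and a course of morphine. The members were taken by symbol, as the rows of the gene table named Gabra2, Gabra3, Gabra4, Gabra5, Gabrb1, Gabrb2 and Gabrd, which are 7 of its 26625 rows. The rule uses no measured value, but it was set with earlier results of these data known. Of the other GABA-A receptor subunit genes, 7 with a row are given beside them. The mice were male C57BL/6 mice, 8 to 10 weeks old, and all of them had an adeno-associated virus injected into the mPFC. The Ctrl groups carried the virus with a negative control hairpin and the Kdm7a-shRNA groups the virus with a hairpin against Kdm7a. In both viruses the hairpin was driven by the U6 promoter and a CMV promoter drove EGFP, and the cell types that the virus reached are not given in the sources used here. Conditioning in a place preference task was done with saline or with morphine at 10 mg/kg, and the tissue was taken on day 7 of withdrawal. With the control virus there were 3 mice given saline (Ctrl + Saline) and 4 given morphine (Ctrl + Morphine). With the knockdown virus 5 were given saline (Kdm7a-shRNA + Saline) and 4 morphine (Kdm7a-shRNA + Morphine), and mice of different groups with the same replicate number are different animals.

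GABA-A receptors are the chloride channels that GABA opens, and they carry most of the fast inhibition of the cortex. Each channel is a ring of subunits, commonly alpha and beta subunits together with a gamma or a delta subunit. GABA binds between alpha and beta. The alpha subunit sets where the receptor sits and which drugs act on it, since receptors with alpha2 or alpha3 and a gamma subunit are benzodiazepine sensitive and mostly synaptic, while those with alpha5, and those that join alpha4 to delta, lie largely outside synapses and carry tonic inhibition. Receptors with the delta subunit are especially sensitive to neurosteroids. The levels below are of messenger RNA in whole tissue, in which fewer cells of a type and less RNA per cell cannot be told apart.

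Full-length cDNA was sequenced on a Nanopore instrument, and 6596991 to 12418112 reads per mouse were counted on genes. Levels are given as normalized CPM, the reads of a gene scaled to a common library total with TMM factors, and fold changes as the log2 ratio of the group named last to the group named before it. A gene passed when its adjusted p was under 0.05 in edgeR's quasi-likelihood test with Benjamini-Hochberg adjustment over 18826 genes and its fold change was at least 1.5. Kdm7a itself ran from 9.08 to 9.78 normalized CPM in the Ctrl + Saline mice and from 4.92 to 6.07 in the Kdm7a-shRNA + Saline mice, and with morphine from 6.19 to 8.89 under the control virus and from 3.01 to 6.28 under the knockdown virus. Its fold change passed under saline (log2 fold change -0.76 ± 0.20 SE, adjusted p = 0.0153) and not under morphine (-0.67 ± 0.21, adjusted p = 0.0506). With 1 mouse left out the adjusted p ran from 0.0155 to 0.0533 under saline, where the call was lost without Ctrl + Saline replicate 3, and from 0.0282 to 0.167 under morphine. The morphine value passed with library size only (adjusted p = 0.0301) and with DESeq2 (adjusted p = 0.0354). All 6 markers of cortical glutamatergic neurons were present, with a summed level of 1530 to 3930 normalized CPM per mouse, against 77.8 to 215 for 7 striatal and 31.2 to 74.9 for 7 thalamic and olfactory markers. The highest striatal sums, 215 and 201, were those of Kdm7a-shRNA + Saline replicates 2 and 5. The highest thalamic and olfactory sum, 74.9, was that of Kdm7a-shRNA + Saline replicate 3. Sums over different genes do not measure how much tissue of each region was taken.

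Most of these genes lie in clusters of the mouse genome (GRCm38, GENCODE vM21). Gabra2 (ENSMUSG00000000560, chr5:70957597-71095849, minus strand), Gabra4 (ENSMUSG00000029211, chr5:71569749-71658308, minus strand) and Gabrb1 (ENSMUSG00000029212, chr5:71658113-72149037, plus strand) share chromosome 5 with Gabrg1. Gabrb2 (ENSMUSG00000007653, chr11:42419757-42629028, plus strand) is on chromosome 11. Gabra5 (ENSMUSG00000055078, chr7:57407672-57510059, minus strand) lies next to Gabrg3 on chromosome 7. Gabra3 (ENSMUSG00000031343, chrX:72432681-72656848, minus strand) is between Gabre and Gabrq, while Gabrd (ENSMUSG00000029054, chr4:155384980-155398112, minus strand) has no subunit gene close by. Gabra4 and Gabrb1 start head to head, their annotated spans overlap by 196 bp at the 5′ ends, and 46 bp of exon are shared. Whether the counting used strand is not given in the sources used here, so reads confined to those shared bases could go to either gene. The antisense gene Gm9962 shares 148 bp of exon with Gabra5 and was not analysed here.

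**Figure D1:**
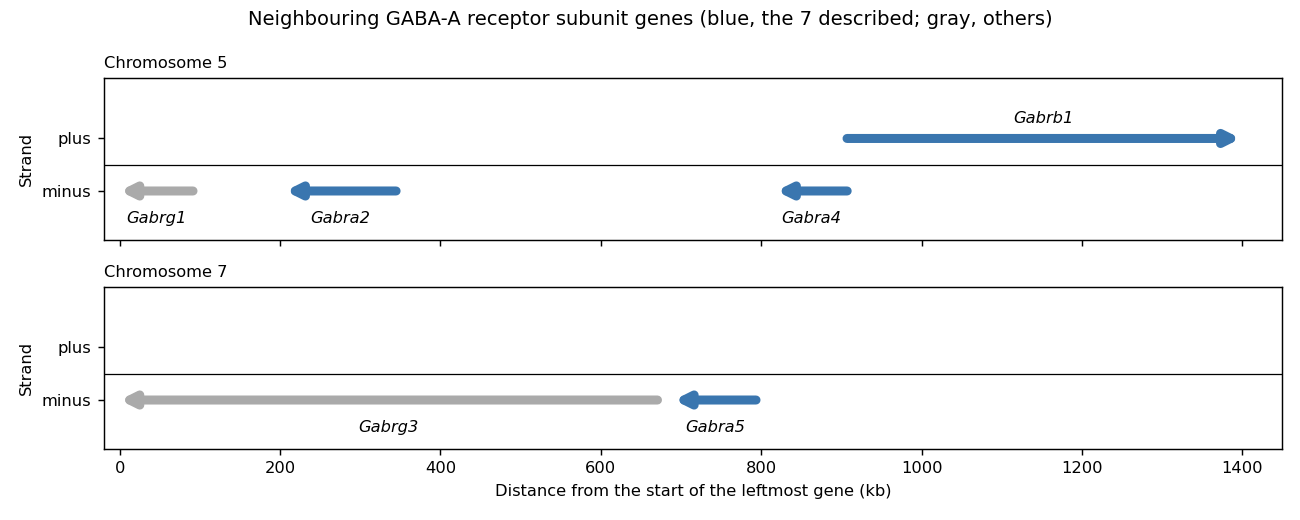
Position of the neighbouring subunit genes on chromosomes 5 and 7, in kb from the start of the leftmost gene of each cluster, with arrows pointing in the direction of transcription and the strand on the y axis. Blue arrows are genes of the 7 described, gray arrows other subunits. Gabra4 and Gabrb1 point away from each other from overlapping 5′ ends.

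Promoter windows are shown for the gene that passed under knockdown (Gabra2), for the pair with the shared start (Gabra4 and Gabrb1) and for Gabrb2, whose log2 fold change was as far below 0 as that of Gabra2 without passing. Each holds 250 bases before and 50 bases after a RefSeq start on GRCm38.p6, 300 bases in all, written 5′ to 3′ on the strand of the gene. For Gabrb1 and Gabrb2, which have several listed starts, the most upstream is shown. Capitals mark matches on either strand to 3 motifs. These are the GC box, spelled GGGCGG, the TATA box, spelled TATAAA, and the inverted CCAAT box, which is spelled by the letters ATTGG.
Gabra2, chr5:71095800-71096099, minus strand: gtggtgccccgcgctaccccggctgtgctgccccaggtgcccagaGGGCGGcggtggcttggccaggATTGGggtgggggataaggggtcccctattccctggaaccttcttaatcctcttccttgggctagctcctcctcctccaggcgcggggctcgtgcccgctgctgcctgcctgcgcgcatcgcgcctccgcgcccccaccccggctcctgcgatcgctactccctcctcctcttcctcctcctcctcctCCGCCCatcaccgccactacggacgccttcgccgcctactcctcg
Gabra4, chr5:71658259-71658558, minus strand: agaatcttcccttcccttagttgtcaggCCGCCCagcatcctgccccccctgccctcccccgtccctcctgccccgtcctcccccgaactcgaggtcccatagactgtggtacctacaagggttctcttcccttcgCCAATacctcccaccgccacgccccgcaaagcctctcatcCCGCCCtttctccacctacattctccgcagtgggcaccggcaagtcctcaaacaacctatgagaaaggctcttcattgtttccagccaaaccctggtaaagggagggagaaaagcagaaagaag
Gabrb1, chr5:71657671-71657970, plus strand: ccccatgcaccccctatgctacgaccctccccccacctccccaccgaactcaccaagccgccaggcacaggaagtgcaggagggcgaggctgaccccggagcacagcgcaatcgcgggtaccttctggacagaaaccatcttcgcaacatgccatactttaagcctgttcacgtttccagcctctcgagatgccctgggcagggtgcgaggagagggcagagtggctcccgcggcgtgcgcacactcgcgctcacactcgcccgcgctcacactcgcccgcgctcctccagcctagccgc
Gabrb2, chr11:42420190-42420489, plus strand: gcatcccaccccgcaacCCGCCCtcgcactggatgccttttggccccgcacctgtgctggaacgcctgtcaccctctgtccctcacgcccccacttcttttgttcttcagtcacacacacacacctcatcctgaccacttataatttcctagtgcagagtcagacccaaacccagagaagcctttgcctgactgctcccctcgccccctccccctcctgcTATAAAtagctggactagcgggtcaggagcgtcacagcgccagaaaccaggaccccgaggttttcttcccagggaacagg
Of the 7 genes, 6 had an entry, and Gabrd had none. Gabra2 and Gabrb1 had 25 CpG dinucleotides each in these windows, Gabra4 had 12 and Gabrb2 had 11, and the median of 32817 promoters was 7. Gabra4 faces Gabrb1 with 387 bp between the RefSeq starts, each start lying inside the transcribed span of the other gene. The GC box occurred 2 times in Gabra2 and in Gabra4, 1 time in Gabrb2 and 0 times in Gabrb1. It is present in 35.6% of all promoters of this length. The TATA box of Gabrb2 has letters that occur on either strand in 13.6% of promoters. Those of the inverted CCAAT box occur on either strand in 37.4%. On the strand of the gene they read ATTGG in Gabra2 and CCAAT, the direct form, in Gabra4. The cAMP response element TGACGTCA (1.79% of promoters) and the E-box CACGTG (7.15%) were not in any of the 6 genes' windows. The 2 Gabra3 windows overlap and had 0 CpG. They share 1 match to the TATA letters, which lies on the strand opposite the gene. The Gabra5 window had 13 CpG.

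In the 7 Ctrl mice the subunits covered a wide range of levels. In normalized CPM the means stood in the order Gabra3 (55.1), Gabrb1 (27.1), Gabra4 (25.6), Gabra5 (19.4), Gabrd (14.5), Gabrb2 (8.73) and Gabra2 (7.7). Per kb of exon, the order of the means was Gabra3 (14.0 ± 1.96 CPM per kb, SD, n = 7), Gabra5 (6.51 ± 1.09), Gabrd (5.04 ± 1.19), Gabra4 (4.21 ± 0.613), Gabrb1 (1.96 ± 0.157), Gabrb2 (1.37 ± 0.232) and Gabra2 (1.01 ± 0.284). Each was above the next in all 7 mice, apart from Gabrd above Gabra4 and Gabrb2 above Gabra2, which held in 6 of 7. The cDNA was amplified by PCR before sequencing, so reads are not counts of original molecules. Reads of full-length cDNA need not grow in number with transcript length, so the division can place long genes too low. Gabrb1, with 13838 bp of exon, and Gabra4 stood above Gabra5 and Gabrd only without it.

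**Figure D2:**
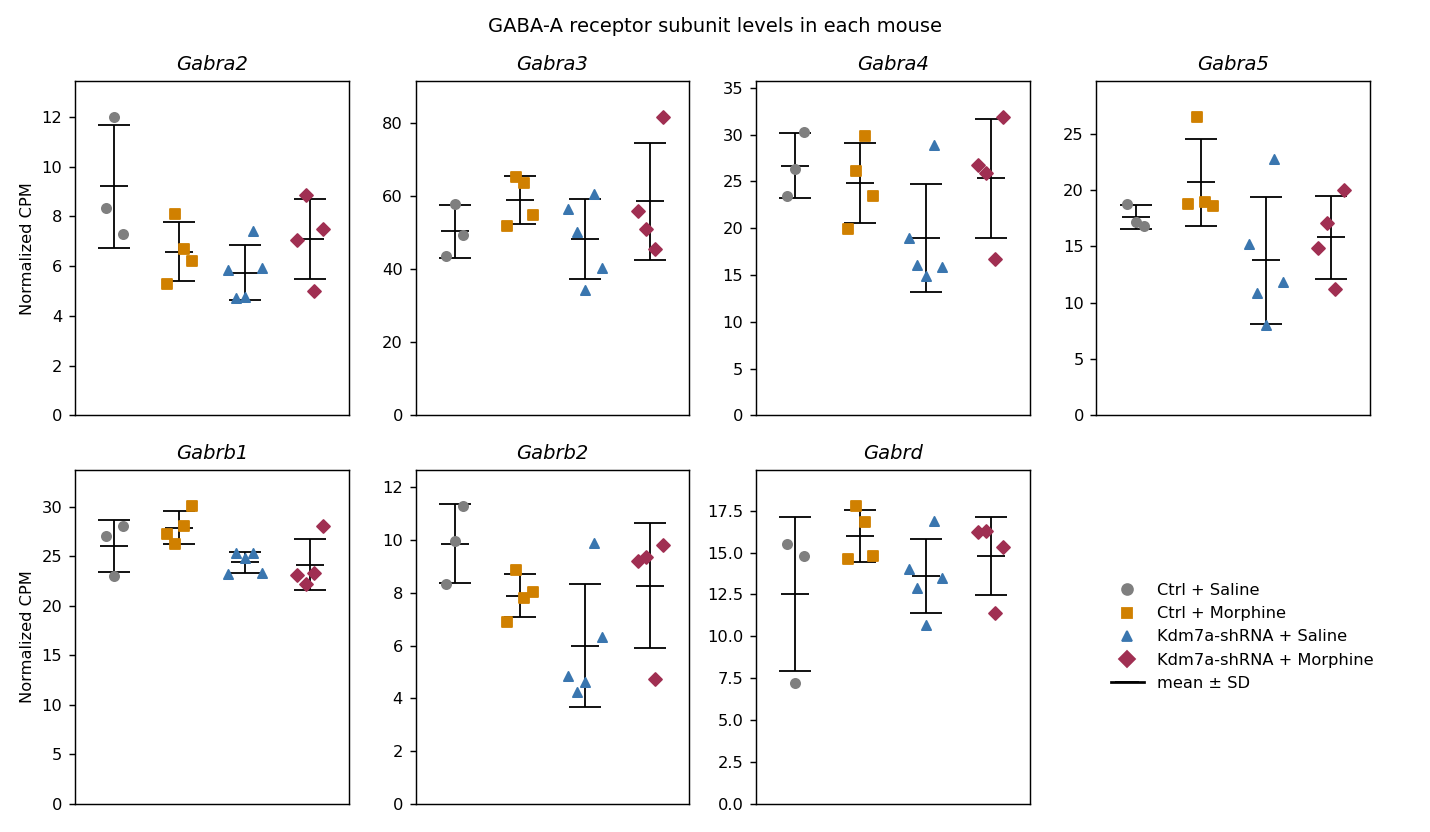
Normalized CPM of each subunit (y axis, starting at 0) in every mouse of the 4 groups (symbols), with the mean and SD of each group as bars. Kdm7a-shRNA + Saline replicate 4 stands at the top of its group in 6 of the 7 panels and level with the highest in that of Gabrb1, and Gabrb1 has the narrowest spread.

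With knockdown under saline Gabra2 fell. Gabra4, Gabra5 and Gabrb2 were lower in 4 of the 5 knockdown mice than in any Ctrl + Saline mouse but did not pass the test. How many of all genes were separated this far was not counted, here or in the comparisons below. Of the 7 subunits 1 passed, as lower, in a comparison in which 16.7% of all tested genes passed and 9.31% passed as lower. The log2 fold change was below 0 for 6 of the 7, with a median of -0.35, beside a median of 0.02 over all tested genes. Over known genes alone the median was 0.10, and 40.6% of them were below 0. The 7 values share the same Ctrl + Saline mice, so they are not 7 separate results.

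Gabra2 encodes alpha2, the subunit of many synapses on the axon initial segment and soma of pyramidal cells. Its normalized CPM was 8.33, 12 and 7.29 in the Ctrl + Saline mice and 5.86, 4.72, 4.74, 7.42 and 5.93 in the Kdm7a-shRNA + Saline mice, from 40 to 123 reads. Replicate 4 of the knockdown mice lay within the Ctrl + Saline range and the other 4 below it. The log2 fold change was -0.69 ± 0.22 (SE, adjusted p = 0.0372, edgeR's quasi-likelihood test), or 0.621 times the Ctrl + Saline level with a 95% interval of the log2 value from -1.16 to -0.22. The 8 alternatives that keep every mouse gave adjusted p-values from 0.0181 to 0.0477. The call depended on single mice. It was lost without Ctrl + Saline replicate 2, the highest mouse (log2 fold change -0.44, adjusted p = 0.260), and without Kdm7a-shRNA + Saline replicate 1, 2, 3 or 5, with adjusted p-values of 0.0548, 0.0812, 0.0801 and 0.0583.

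Gabra3 encodes alpha3, a subunit common in deep cortical layers. It had 43.6, 57.9 and 49.3 normalized CPM in the Ctrl + Saline mice and 56.3, 50, 34.2, 60.5 and 40.2 in the Kdm7a-shRNA + Saline mice. The groups overlapped on both sides, with a log2 fold change of -0.06 and a 95% interval from -0.47 to 0.35.

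Gabra4 encodes alpha4, found mostly outside synapses. It had 23.4, 26.3 and 30.3 normalized CPM in the Ctrl + Saline mice and 19.0, 16.1, 14.9, 28.9 and 15.9 in the Kdm7a-shRNA + Saline mice, a log2 fold change of -0.49 ± 0.22 (SE, adjusted p = 0.123). Gabra5 encodes alpha5, a subunit of tonic inhibition in pyramidal cells. Its 3 Ctrl + Saline mice were close together at 18.8, 17.2 and 16.8 normalized CPM, while the Kdm7a-shRNA + Saline mice had 15.2, 10.9, 8.06, 22.8 and 11.8. The log2 fold change was -0.35 ± 0.26 (SE, adjusted p = 0.349). In both genes replicate 4 of the knockdown mice was inside or above the Ctrl + Saline range and the other 4 mice were below it.

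Gabrb2 encodes beta2, a beta subunit of many synaptic receptors. It had 8.33, 9.95 and 11.3 normalized CPM in the Ctrl + Saline mice and 4.83, 4.26, 4.62, 9.90 and 6.33 in the Kdm7a-shRNA + Saline mice. The 4 knockdown mice other than replicate 4 again lay below all the Ctrl + Saline mice. The log2 fold change was -0.71 ± 0.27 (SE, adjusted p = 0.0641). With the replicate number as a block it was -0.92 (adjusted p = 0.0316) and with library size only -0.84 (adjusted p = 0.0366), and both passed. Gabrb1, which encodes beta1, had 27.0, 23.0 and 28 in the Ctrl + Saline mice and 23.2, 25.3, 24.8, 25.3 and 23.3 in the Kdm7a-shRNA + Saline mice, so all 5 knockdown mice lay within the range of the controls. Its log2 fold change was -0.09 with a 95% interval from -0.34 to 0.16, which does not reach a 1.5-fold change.

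Gabrd encodes delta, the subunit of neurosteroid-sensitive receptors outside synapses. It had 15.5, 7.22 and 14.8 normalized CPM in the Ctrl + Saline mice and 14.0, 12.9, 10.7, 16.9 and 13.5 in the Kdm7a-shRNA + Saline mice. Replicate 2 of the Ctrl + Saline mice, the highest for Gabra2, was the lowest of all 16 mice for Gabrd. The log2 fold change of Gabrd was 0.13 with all mice and -0.15 without that mouse.

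The number of subunits that passed also depended on single mice, most of all on Kdm7a-shRNA + Saline replicate 4. Without that mouse 4 passed instead of 1, as Gabra4 then stood at -0.70 (adjusted p = 0.0164), Gabra5 at -0.61 (adjusted p = 0.0470), Gabrb2 at -0.97 (adjusted p = 0.00797) and Gabra2 at -0.80 (adjusted p = 0.0189). The number of all genes that passed was 3730 without it and 3151 with it.

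**Figure D3:**
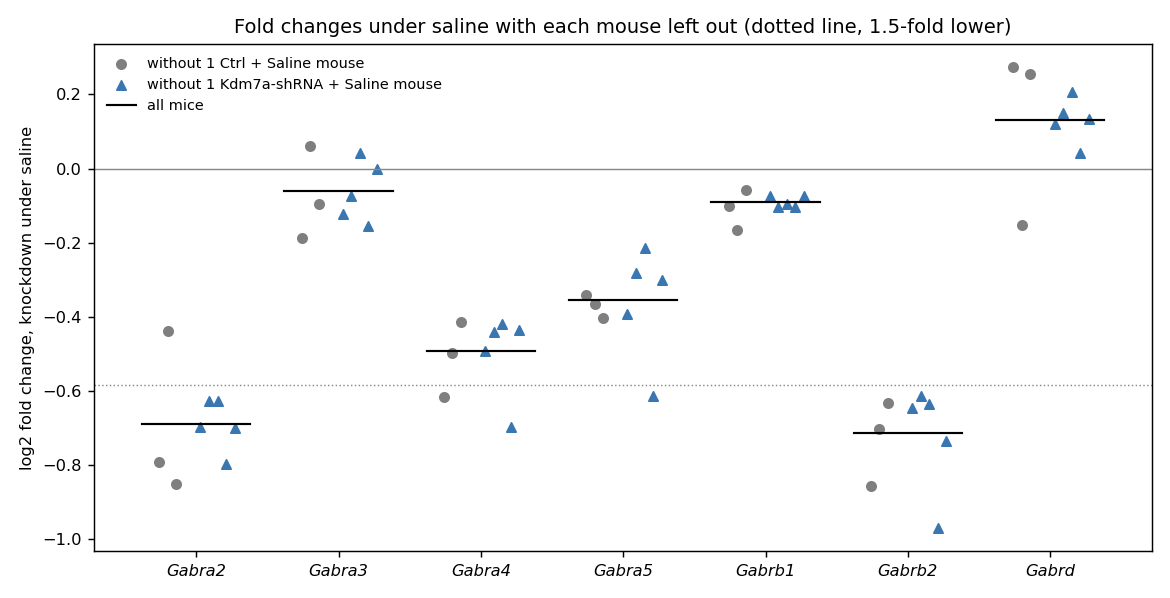
The log2 fold change of each subunit between Ctrl + Saline and Kdm7a-shRNA + Saline mice (y axis), with all mice (black lines) and with each Ctrl + Saline mouse (gray circles) or Kdm7a-shRNA + Saline mouse (blue triangles) left out. The lowest triangle of Gabra4, Gabra5 and Gabrb2 is the fit without Kdm7a-shRNA + Saline replicate 4, and the highest circle of Gabra2, at -0.44, and the lowest of Gabrd, at -0.15, are the fits without Ctrl + Saline replicate 2.

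Under morphine 0 of the 7 subunits passed with knockdown, and 0 had an unadjusted p under 0.05, in a comparison in which 7.69% of all genes passed and 4.83% passed as lower. DESeq2's Wald test also called 0 of them. Gabra2 had 5.29, 8.11, 6.70 and 6.21 normalized CPM in the Ctrl + Morphine mice and 7.05, 8.87, 4.98 and 7.51 in the Kdm7a-shRNA + Morphine mice, and the groups overlapped, with a log2 fold change of 0.10 ± 0.22 (SE). Gabrb2 had 6.89, 8.86, 7.79 and 8.02 in the Ctrl + Morphine mice and 9.19, 9.35, 4.73 and 9.80 in the Kdm7a-shRNA + Morphine mice, of which 3 lay above all the controls and replicate 3 below them. Gabra4 had a log2 fold change of 0.02 and Gabrb2 of 0.05, with 95% intervals from -0.43 to 0.48 and from -0.49 to 0.60. The direction of both turned below 0 with library size only, to -0.08 and -0.05. Gabra3 was at -0.01, which turned above 0 with RLE factors and with DESeq2, and Gabrd at -0.11.

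Gabra5 and Gabrb1 had the lowest fold changes with knockdown under morphine. Gabra5 had 18.8, 26.5, 18.9 and 18.6 normalized CPM in the Ctrl + Morphine mice and 14.9, 17.1, 11.2 and 20 in the Kdm7a-shRNA + Morphine mice, of which 3 of 4 lay below all the controls (log2 fold change -0.40 ± 0.25 SE, adjusted p = 0.343). For Gabrb1 the values were 27.2, 26.2, 28 and 30.1 in the Ctrl + Morphine mice and 23.1, 22.2, 23.3 and 28 in the Kdm7a-shRNA + Morphine mice. Again 3 of 4 knockdown mice were below the controls, with a log2 fold change of -0.21 ± 0.11 (SE, adjusted p = 0.265). Averaged over both treatments, knockdown moved 0 of the 7 past the test, where 17.6% of all genes passed and 9.93% passed as lower. DESeq2's Wald test also gave 0 for the average, and 0 members had an unadjusted p under 0.05. Of the 7 averages 6 were below 0, from -0.37 ± 0.18 (SE) for Gabra5 (adjusted p = 0.130) to 0.01 for Gabrd, whose sign turned with library size only. Among known genes 41.3% of the averages were below 0.

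**Figure D4:**
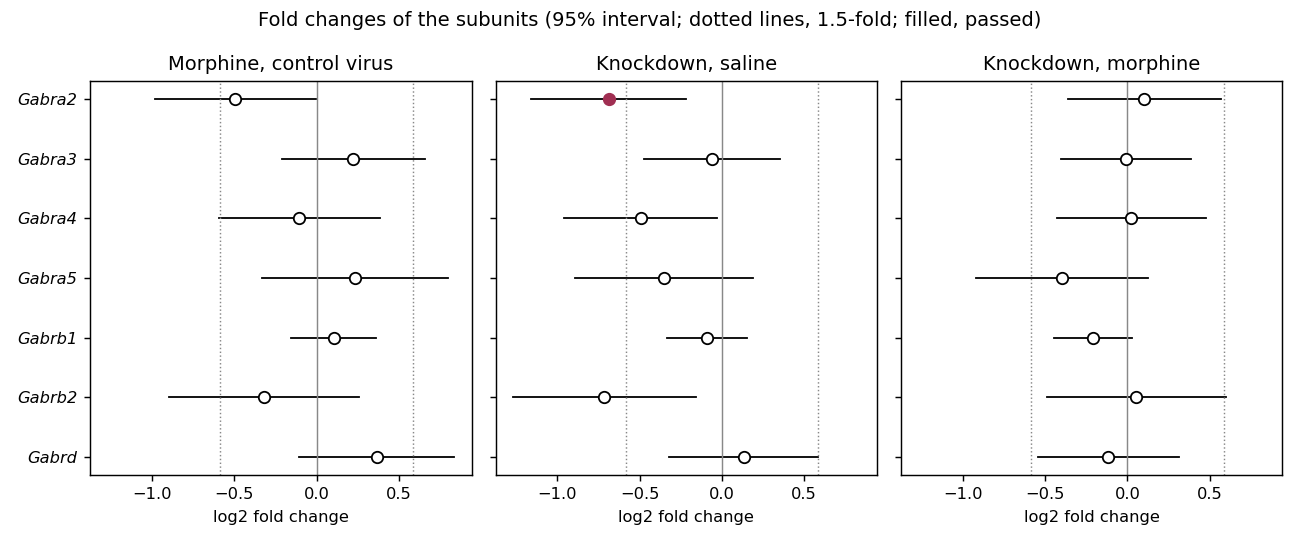
Log2 fold change (x axis) of each subunit in 3 comparisons, with its 95% interval as a line. A filled circle passed the test, which only Gabra2 did, with knockdown under saline, and the dotted lines mark a 1.5-fold change. The intervals of Gabrb1 are the shortest in each panel.

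Morphine in mice with the control virus moved 0 of the 7 subunits past the test, and 0% of all genes. At an unadjusted p under 0.05 there were 1 subunit and 2205 genes, and DESeq2's Wald test gave 0 subunits and 190 genes. The subunit was Gabra2, from 8.33, 12 and 7.29 normalized CPM in the Ctrl + Saline mice to 5.29, 8.11, 6.70 and 6.21 in the Ctrl + Morphine mice, 3 of which lay below all the Ctrl + Saline mice (log2 fold change -0.49 ± 0.23 SE, adjusted p = 0.423). Without Ctrl + Saline replicate 2 it was -0.25. Gabrb2 had 6.89, 8.86, 7.79 and 8.02 in the Ctrl + Morphine mice and a log2 fold change of -0.32 (adjusted p = 0.694). Gabrd, with 14.6, 17.8, 16.8 and 14.8 in the Ctrl + Morphine mice, was at 0.36 (adjusted p = 0.564), and at 0.08 without Ctrl + Saline replicate 2. Gabra3, Gabra5 and Gabrb1 were at 0.22, 0.23 and 0.10, and Gabra4 at -0.10. The comparison of knockdown under saline shares its Ctrl + Saline mice with this one.

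Between the Kdm7a-shRNA groups, 0 of the 7 subunits passed, as did 0.00531% of all genes, and 0 had an unadjusted p under 0.05. DESeq2 also gave 0. The log2 fold changes under morphine relative to saline ran from -0.01 for Gabrb1 to 0.45 for Gabrb2, with 6 of 7 above 0. Among known genes 50% were below 0. Gabra4, the one with the smallest p, had 26.8, 25.9, 16.7 and 31.9 normalized CPM in the Kdm7a-shRNA + Morphine mice and a log2 fold change of 0.41 ± 0.21 (SE, adjusted p = 0.732).

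The interaction, the knockdown effect under morphine minus that under saline, passed for 0 of the 7 subunits and for 0.0850% of all genes. It was largest for Gabra2, at 0.79 ± 0.32 on the log2 scale (SE, unadjusted p = 0.0215, adjusted p = 0.351), and Gabrb2 stood at 0.77 ± 0.37 (adjusted p = 0.476). Gabra2 was the only subunit with an unadjusted p under 0.05. DESeq2's Wald test gave 0 subunits as well. The values of Gabrd, Gabrb1 and Gabra5 were below 0, down to -0.25. The knockdown effect on Gabra2 was thus not shown to differ between saline and morphine after adjustment.

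Gabrg1 and Gabrg3, which encode gamma subunits, were followed beside the 7, and 0 of the 2 passed in any comparison by edgeR's quasi-likelihood test, with at most 1 at an unadjusted p under 0.05. For Gabrg1, whose gamma1 subunit is also made by glia, the log2 fold change with knockdown was 0.33 under saline and 0.59 under morphine, and its average over the treatments was 0.46 ± 0.16 (adjusted p = 0.0418), past the adjusted p and under a 1.5-fold change. Gabrg3 had 24 to 76 reads per mouse and log2 fold changes of 0.30 and -0.37 with knockdown and of 0.73 with morphine under the control virus (adjusted p = 0.352).

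The mix of the 4 alpha subunits was also set side by side in the 4 groups. Gabra2 made up 8.82% ± 1.79 (SD, n = 3) of the reads on Gabra2 to Gabra5 in the Ctrl + Saline mice and 5.91% ± 0.422 (n = 4) in the Ctrl + Morphine mice. With the knockdown virus it made up 6.75% ± 1.02 (n = 5) under saline and 6.76% ± 1.38 (n = 4) under morphine. Gabra3 took a mean of 48.3% to 56% per group. Gabra4 took 21.8% to 25.8% and Gabra5 14.8% to 18.6%. For Gabra2 the Ctrl + Saline mice, from 7.02% up, and the Kdm7a-shRNA + Saline mice, up to 8.04%, overlapped. These shares were not tested between groups.

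Within groups most pairs of subunits varied together, and Gabrb1 took the least part in this. Each log2 level was centred on its group mean and correlated over the 16 mice, which share library and depth effects between genes, so the values describe these mice and were not tested. The correlation was above 0 for 20 of the 21 pairs, with a median of 0.54. It was highest between Gabra4 and Gabrb2, at 0.86, and 0.80 between Gabra4 and Gabra5. Gabrb1 correlated weakly with its head-to-head neighbour Gabra4 (0.30), with Gabrb2 (0.16) and with Gabra2 (-0.33). Its biological coefficient of variation was 0.113, against 0.194 to 0.241 for the other 6 and a median of 0.160 over known genes with a mean CPM of at least 10. Kdm7a-shRNA + Saline replicate 4 and Kdm7a-shRNA + Morphine replicate 4 were above their group means in all 7 subunits, by 0.48 and 0.28 on average on the log2 scale. Kdm7a-shRNA + Morphine replicate 3 was below in all 7, at -0.42 on average, and so was Ctrl + Morphine replicate 1, at -0.18.

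By the same measure, the gene with the closest pattern among 7760 or 7761 known genes was Gnai1 for Gabra2 (0.92), Snx10 for Gabra3 (0.96), Il34 for Gabra4 (0.96), Fxyd6 for Gabra5 (0.97), 1700021F05Rik for Gabrb1 (0.86), Gpr158 for Gabrb2 (0.95) and Sucla2 for Gabrd (0.94). Next came Castor2 and Zcchc18 for Gabra2, Sphkap and Lcmt1 for Gabra3, Matr3 and Ndufv2 for Gabra4, Tmem130 and Rasgrf1 for Gabra5, Atp5j2 and Srp19 for Gabrb1, Elavl4 and Jakmip2 for Gabrb2, and Ctxn1 and Dnajb6 for Gabrd. The median correlation over all genes lay between -0.00198 and 0.0816 for each subunit.

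Sums of microglia, astrocyte and endothelial markers were highest in the 4 mice that were lowest for Gabra4 and Gabra5. Under saline 4 of 5 microglia markers rose with knockdown (Csf1r, C1qa, P2ry12 and Cx3cr1), with a median log2 fold change of 1.03 over the 5, and under morphine 2 rose (C1qa and Cx3cr1), with a median of 0.84. Of all tested genes 16.7% passed in either direction under saline and 7.69% under morphine. The summed microglia markers ran from 479 to 580 normalized CPM in the Ctrl + Saline mice, from 273 to 510 in the Ctrl + Morphine mice, from 709 to 2050 in the Kdm7a-shRNA + Saline mice and from 482 to 1870 in the Kdm7a-shRNA + Morphine mice. The 4 highest sums were those of Kdm7a-shRNA + Saline replicates 2, 3 and 5 (1470, 2050 and 1530) and Kdm7a-shRNA + Morphine replicate 3 (1870). These 4 mice had the lowest Gabra5 of all 16, at 10.9, 8.06, 11.8 and 11.2 normalized CPM. The lowest sum of each knockdown group belonged to replicate 4, at 709 and 482, the mouse that was high for the subunits. All 5 markers, Tmem119 included, were above 0 in every group. The pattern was not particular to microglia, since the same 4 mice also had the 4 highest sums of astrocyte markers, at 1230, 1570, 1470 and 1580 normalized CPM, with 1180 the next. Single astrocyte markers did not all follow the sum. Slc1a2 reached 745 in the Ctrl + Saline mice, against at most 565 in the Kdm7a-shRNA + Saline and 649 in the Kdm7a-shRNA + Morphine mice. Gja1 reached 94.4 in the Ctrl + Saline mice and at most 78.6 in the Kdm7a-shRNA + Morphine mice. The sums of endothelial markers in the same 4 mice, at 227, 262, 210 and 266, were also the 4 highest, with 194 the next. So were their sums of the neurosteroid genes described below, at 74.4, 100, 81.5 and 83.3, with 50.6 the next. Sums of thalamic and olfactory markers were highest in these 4 mice too, at 62.1, 74.9, 62.4 and 57.1, with 54.8 the next. Their sums of interneuron markers (445, 398, 405 and 401) were the 4 lowest, with 468 the next. Their sums of neurogliaform markers (266, 270, 288 and 303) were also the 4 lowest, with 325 the next. Striatal sums did not set these mice apart, as they ran from 77.8 to 215. The part of these genes in the subunit differences was not tested.

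**Figure D5:**
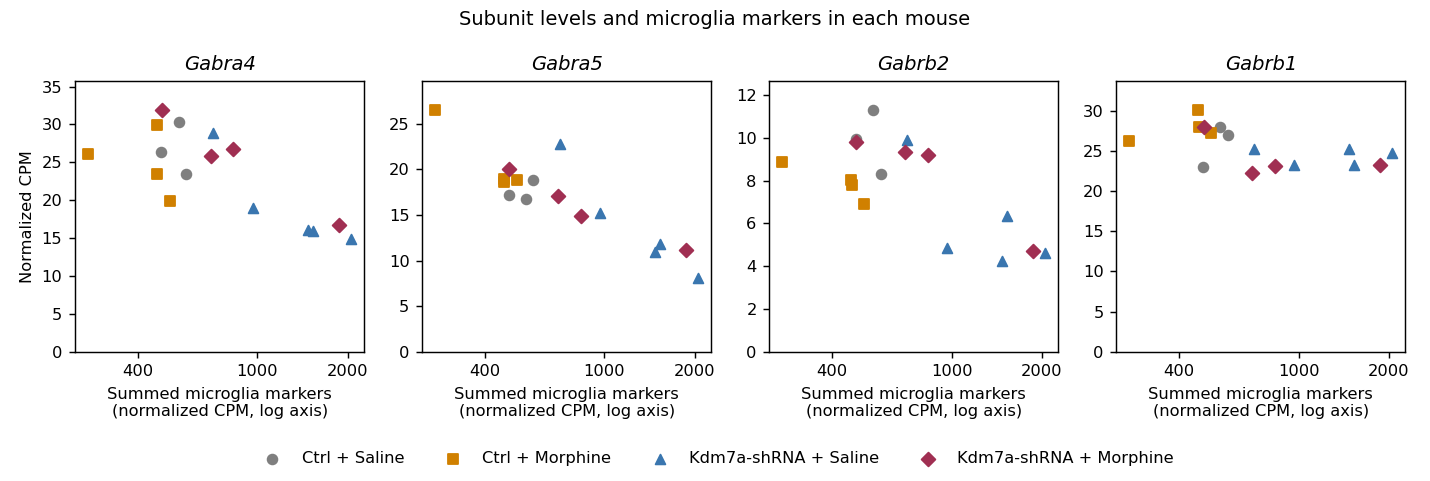
Normalized CPM of Gabra4, Gabra5, Gabrb2 and Gabrb1 (y axis, from 0) against the summed normalized CPM of 5 microglia markers (x axis, log scale), with 1 symbol per mouse and the group shown by colour and shape. The 4 mice with the highest sums, from 1470 to 2050, lie at the low end for Gabra4, Gabra5 and Gabrb2, while Gabrb1 stays between 22.2 and 30.1 in all 16 mice.

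The marker lists also differed in how many genes passed. For the lists here and below, the share of all tested genes that passed with knockdown under saline was 16.7%, and 9.31% passed as lower. Under morphine these shares were 7.69% and 4.83%. With knockdown under saline 2 of 6 astrocyte markers (Aldh1l1 and Gfap) and 3 of 4 endothelial markers (Cldn5, Flt1 and Pecam1) rose, and under morphine 0 and 1 did. Of 8 interneuron markers, 4 fell under saline (Sst, Vip, Lamp5 and Gad2) and 2 rose (Slc32a1 and Pvalb). The summed interneuron markers were 627 to 686 normalized CPM in the Ctrl + Saline mice and 398 to 528 in the Kdm7a-shRNA + Saline mice. Under morphine Sst fell and Pvalb rose, with sums of 658 to 670 in the Ctrl + Morphine and 401 to 623 in the Kdm7a-shRNA + Morphine mice. Of 5 markers of neurogliaform cells, interneurons that are a main source of the ambient GABA acting on delta receptors, Npy, Lamp5 and Reln fell under saline, with a median log2 fold change of -0.90 over the 5, and Npy and Reln fell under morphine, with a median of -0.50. Of 6 glutamatergic neuron markers 1 rose under saline (Nrgn, 1.48) and 4 were below 0, with a median of -0.29. Olig1 was the 1 of 4 oligodendrocyte precursor markers that rose, and 0 of 6 oligodendrocyte, 0 of 7 striatal and 0 of 5 tested thalamic and olfactory markers passed. The part of these cell types in the subunit values was not tested.

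Of 32 genes of the inhibitory postsynapse and of receptor trafficking, 4 passed with knockdown under saline, where 16.7% of all tested genes passed, with a median log2 fold change of 0.01. Trak2, a kinesin adaptor that binds beta subunits, fell from 33.0 ± 5.10 (SD, n = 3) to 21.4 ± 2.22 (n = 5) normalized CPM, a log2 fold change of -0.62 (adjusted p = 0.00598). Dag1, the dystroglycan of perisomatic inhibitory synapses, rose by 0.64 (adjusted p = 0.0103) and Rdx, the radixin that anchors alpha5 receptors, by 0.65 (adjusted p = 0.0328). Maea, a subunit of a ubiquitin ligase complex, rose by 0.68 (adjusted p = 7.66e-04). Under morphine 0 of the 32 passed and 6 had an unadjusted p under 0.05, and Trak2 had the smallest p (-0.54, adjusted p = 0.0229, a fold change under 1.5).

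Of 7 tested genes of GABA supply, 2 passed with knockdown under saline, 1 higher and 1 lower, beside 16.7% of all tested genes. Of the 7, 6 were below 0, beside 40.6% of known genes. Slc32a1, the vesicular GABA transporter, rose by 1.10 on the log2 scale under saline when Kdm7a was knocked down (adjusted p = 0.00271). Gad2, which makes GABA, fell from 11.7 ± 1.10 (SD, n = 3) to 7.53 ± 2.01 (n = 5) normalized CPM (log2 fold change -0.63, adjusted p = 0.0360). Under morphine 0 of the 7 passed and 1 had an unadjusted p under 0.05, with Gad2 at -0.57 (adjusted p = 0.0798) and Slc32a1 at 0.155. Averaged over treatments Slc32a1 (0.63, adjusted p = 0.00409) and Gad2 (-0.60, adjusted p = 0.00469) passed.

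Of 11 chloride transporters and their kinases, 2 passed with knockdown under saline, both lower, beside 9.31% of all tested genes that passed as lower. Clcn3, a vesicular chloride-proton exchanger, fell from 223 ± 32.7 (SD, n = 3) to 147 ± 22.4 (n = 5) normalized CPM (log2 fold change -0.60, adjusted p = 0.00580), and Clcn2, a plasma membrane chloride channel, stood at -0.62 (adjusted p = 0.0108). Under morphine 0 passed and 2 had an unadjusted p under 0.05, with Clcn2 at -0.38 (adjusted p = 0.125). Of 6 tested neurosteroid genes, Tspo, the mitochondrial translocator protein that is also a microglial gene, rose under saline by 1.55 (adjusted p = 0.0163) and Srd5a3, a steroid 5-alpha-reductase family member with few reads, by 1.70 (adjusted p = 0.0247). Tspo had a log2 fold change of 1.25 under morphine (adjusted p = 0.0542), and both passed in the average over treatments. Of 6 genes of GABA-B receptors, the metabotropic receptors for GABA, 0 passed with knockdown, with 2 at an unadjusted p under 0.05 under saline and 0 under morphine, and Kctd12 had the smallest p under saline (0.71, adjusted p = 0.0943).

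With morphine under the control virus, 0 genes of these lists passed (edgeR's quasi-likelihood test). An unadjusted p under 0.05 was reached by 6 postsynaptic, 1 GABA supply, 1 GABA-B, 1 chloride and 0 neurosteroid genes. The smallest p-values were those of Maea (0.42, adjusted p = 0.160), Slc32a1 (0.62, adjusted p = 0.268), Kctd16 (-0.84, adjusted p = 0.355), Stk39 (0.47, adjusted p = 0.399) and Akr1c14 (-0.57, adjusted p = 0.732). Between the Kdm7a-shRNA groups and in the interaction 0 genes of these lists passed either.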

How the data were processed

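RNA from the mPFC of 16 mice was sequenced as full-length cDNA (Nanopore cDNA-PCR kit). Per the methods and the submitters' processing notes, the authors dropped short and low-quality reads as well as rRNA reads, and mapped the full-length ones to mm10 with minimap2. The notes also list edgeR 3.8.6, and whether counting used strand is not given in the sources used here. The deposited counts are whole reads per gene without normalization, and the deposited CPM values are those counts scaled to a common column total, which they match to within 4.99e-06. The counts were used. Each library was taken as 1 mouse, since the paper's account of the sequencing names no pooling. The tests judge differences against the spread between libraries.

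The fit was made with edgeR 4.0.16 under R 4.3.3 (filterByExpr, TMM, quasi-likelihood test, 1 fit of all 16 mice with 1 coefficient per group) in 6 comparisons, with Benjamini-Hochberg adjustment over 18826 genes. Intervals use the fit's total degrees of freedom. To pass, a gene needed a 1.5-fold change or more at an adjusted p below 0.05. Total reads were 6596991 to 12418112 per mouse, and chi-square per degree of freedom between mice of a group was 8.33 to 51.2, so no pair agreed within sampling noise. Scripts were tested on simulated data. In simulated counts for Ctrl + Saline with Kdm7a-shRNA + Saline, 200 of 18826 genes were changed. Of these, 10 of 100 genes changed 1.5-fold and 54 of 100 changed 2-fold passed. In the data 3151 genes passed in this comparison, so the adjustment was less strict there. The simulated shares can therefore be too low for the data. Not passing does not show that a gene was unchanged. Members and the 17 gene lists were chosen with earlier results of these data known. A few listed genes are not reported here and were left out of the lists. The text names all members, Kdm7a, other subunits, up to 3 genes per list and direction that passed (otherwise the smallest p), and the 3 genes most like each member. Alternatives were RLE factors, library size only, no filter, at least 10 counts in every mouse, known genes only, compared groups alone, DESeq2 1.42.0, the replicate number as a block, adjusted p alone, and each mouse left out. Transcript-level values were not used here.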

Additional observations from a re-analysis of the deposited data

Results flagged for a closer look

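Over 10 genes (the 7 subunits, Gabrg1, Gabrg3 and Kdm7a) and the groups of 4 or 5 mice, 30 sets of values were looked at for a mouse far from the rest of its group by Dixon's criterion, which chance meets in about 1 of 20 sets, and 2 were found. Gabra5 was 26.5 normalized CPM in Ctrl + Morphine replicate 2, and the nearest of the other 3 mice was 18.9. Gabrb2 was 4.73 in Kdm7a-shRNA + Morphine replicate 3, and the nearest of the others was 9.19. The smallest adjusted p of an interaction of knockdown and treatment among these genes was 0.351, so no difference between the treatments was singled out.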

How the results depend on the processing

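With knockdown under saline, 1 of the 7 subunits passed. The count was 2 with library size only and 2 with the replicate block (Gabra2 and Gabrb2 in both), and 0 to 4 with each mouse left out. It was 0 without Ctrl + Saline replicate 2 or Kdm7a-shRNA + Saline replicate 1, 2, 3 or 5, and 4 without Kdm7a-shRNA + Saline replicate 4. It stayed at 1 under the other alternatives, and in the other 5 comparisons it stayed at 0 under every alternative run, the replicate block included. Same-numbered mice correlated at -0.23 to 0.61 in their deviations from the group means, not all above 0.1, so the numbers were not taken to pair mice. The highest values, 0.61 for replicate 3 and 0.51 for replicate 4, were both between the Kdm7a-shRNA groups, with 0.26 the next. In each of these groups replicate 3 had the lowest and replicate 4 the highest mean centred log2 level of the 7 subunits. Library size only shifted the median over all genes by -0.13 (knockdown under saline), -0.11 (under morphine) and -0.12 (average), and higher calls then made up 29.2%, 24.0% and 30.6% of those passing in place of 44.4%, 37.2% and 43.6%. The number of all genes passing ran from 1378 (known genes only) to 3402 (no filter) under saline and from 424 (known genes only) to 1697 (DESeq2) under morphine. For the average it ran from 1409 to 4080, for morphine under the control virus from 0 to 190, between the Kdm7a-shRNA groups from 0 to 26 and for the interaction from 6 to 227. With 1 mouse left out it was 1424 (without Ctrl + Saline replicate 3) to 3730 under saline and 568 (without Kdm7a-shRNA + Morphine replicate 3) to 2066 under morphine. It reached 230 for morphine under the control virus and 266 for the interaction, both without Ctrl + Saline replicate 1.

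The alternatives were followed for 40 log2 fold changes of the 7 subunits, Gabrg1, Gabrg3 and Kdm7a. Of these 8 changed sign somewhere, all of them within 0.131 of 0 with all mice. Single genes of the other lists were not followed through the alternatives, so whether their calls depend on single mice is not known. With knockdown under morphine, Gabra3 went to 0.00599 with RLE factors and 0.00611 with DESeq2, Gabra4 to -0.0775 with library size only, -0.0161 with known genes only and -0.0032 with the replicate block, and Gabrb2 to -0.0474 with library size only. The average for Gabrd went to -0.107 with library size only, -0.0234 with at least 10 counts in every mouse, -0.0515 with known genes only and -0.00845 with the replicate block. With each mouse left out, knockdown under saline ran from -0.19 to 0.06 for Gabra3 and from -0.15 to 0.27 for Gabrd. Under morphine it ran from -0.0255 to 0.254 for Gabra2, -0.21 to 0.10 for Gabra3, -0.11 to 0.19 for Gabra4 and -0.0436 to 0.261 for Gabrb2. The average ran from -0.136 to 0.0269 for Gabra3 and from -0.132 to 0.086 for Gabrd. The cause was not tested. Gabra2, at 40 to 123 reads per mouse, and Gabrb2, at 37 to 102, had the fewest reads of the 7.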

Other observations

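Of the other GABA-A subunit genes, 5 were low, against 0.258 to 0.460 CPM for 3 counts in a mouse, and were not tested. Gabre, Gabrq, Gabrr1 and Gabrr3 had group means of at most 0.504 normalized CPM. Gabrr2, which encodes a rho subunit, had a mean of 0.829 ± 0.715 (SD, n = 3) in the Ctrl + Saline mice and 1.08 ± 1.21 (n = 5) in the Kdm7a-shRNA + Saline mice, in which it ran from 0 to 3.02.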
